A study of Mus musculus with 80 samples.

Results

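The subject is a module of 28 mouse genes whose products make cholesterol and fatty acids or control their making, read in a liver RXR ChIP-Seq series as peak lists. The members were chosen by name, with earlier results of these data known though no measured value enters the rule, and all 28 were found among the 21938 protein-coding genes of the GENCODE M21 annotation of the mm10 genome. For each gene a window was taken that ran from 5 kb upstream of its start to 1 kb downstream of its end. A gene was counted in a liver where at least 1 of the intervals that the authors' peak caller listed for that liver overlapped the window, and each interval was placed by its summit in an exon, in an intron or upstream. The other 21910 protein-coding genes, treated in the same way, serve as the background.

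The series used RXR chromatin immunoprecipitation on whole liver from male C57BL6/J mice aged 5 months that had been fed for 12 weeks. Wild-type (WT) mice and mice labelled PPARg knockout (KO), which the study made with a loxP allele removed by Cre under the albumin promoter and therefore in hepatocytes, received control diet (Control), control diet with the PPARγ agonist pioglitazone (Pio), high-fat diet (HFD), or both high-fat diet and pioglitazone (HFD-Pio). There were 5 livers in each of the 8 groups, so 40 ChIP libraries were available, each compared by the authors with its own input library. The RXR antibody is given in the labels of 25 of the 40 ChIP samples, and the other 15, which are those of KO Pio, KO HFD and KO HFD-Pio, are named as RXR samples in their titles but carry no antibody in their labels.

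Cholesterol is built from acetyl-CoA through mevalonate, isoprenoid units, squalene and lanosterol, and fatty acids are built from the same acetyl-CoA pool by ATP-citrate lyase, acetyl-CoA carboxylase and fatty acid synthase. Both routes are switched on by the SREBP transcription factors, which Scap escorts out of the endoplasmic reticulum and Insig proteins hold back there when sterol is plentiful. RXR is the shared partner of many nuclear receptors, PPARγ and the oxysterol receptor LXR among them, and such pairs bind direct repeats of a short half-site, mostly in promoters, introns and distal enhancers.

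The libraries of the 2 genotypes differed before any gene was read. The WT libraries kept 2.04 to 4.26 Mtags (tags in units of 1e6) after removal of duplicates and were called at a p cutoff of 0.001. The KO libraries kept 0.628 to 1.06 Mtags and were called at a q cutoff of 0.05. In 6 of the WT libraries (WT Pio livers 2, 3 and 5 and WT HFD-Pio livers 1, 4 and 5), all from Pio-treated mice, the file header gives a fragment length estimate of 45 to 48 bases, about the read length, against 169 to 292 bases in the other WT libraries. Genotype, depth and cutoff therefore cannot be told apart. Marker genes also differed between groups. Of 14 neural markers, 11 carried an exonic summit in at least 3 livers of every KO group, 1 did so in WT Pio and in WT HFD-Pio, and none in WT Control or WT HFD. Of 8 intestinal epithelium markers, 4 did so in WT Pio and 4 in WT HFD-Pio, and none in any other group. Of 14 hepatocyte markers, at most 1 did so in any group (Ttr in the KO groups and Pck1 in the WT groups given Pio), and 13 of the 14, albumin among them, had an exonic summit in no KO liver. WT Control liver 5 stood apart with exonic summits at 6 of the 14 (Alb, Apoa1, Ahsg, Cyp2e1, Serpina1c and Trf), against 0 in the other 4 WT Control livers, and it had an interval at no member. Smooth muscle markers reached 3 livers for 3 of 6 genes in WT Pio and in WT HFD-Pio and for 2 to 5 of 6 in the KO groups, and adipocyte markers for none of 6. Exonic summits at hepatocyte markers do not show the labelled tissue in the KO libraries or, WT Control liver 5 aside, in the WT libraries. As RXR pairs bind mostly outside exons, missing exonic summits do not show another tissue either. Which cells or which nucleic acid the tags came from was not tested, and this bears on every value below, KO and WT. The part of the marker differences in the values below was not tested either, and in whole liver fewer cells of a type and less signal per cell cannot be told apart. The targeted gene, Pparg, had an interval in 2, 4, 0 and 3 of 5 livers in WT Control, WT Pio, WT HFD and WT HFD-Pio and in 0, 1, 0 and 0 livers in the same order of KO groups. Intervals do not show whether its deleted exons are present.

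The member genes were marked mainly in the KO livers, and mainly in their exons. In KO Control, KO Pio, KO HFD and KO HFD-Pio, 18, 22, 17 and 19 of the 28 members had an interval in at least 3 of 5 livers, against 28.1%, 33.3%, 29.7% and 31.9% of the other genes. In WT Control, WT Pio, WT HFD and WT HFD-Pio the numbers were 1, 5, 0 and 5 members, against 2.31%, 15.2%, 0.543% and 11.9% of the other genes. With the summit required to lie in an exon of the gene itself, 15, 20, 14 and 17 members remained in the 4 KO groups (other genes 21.1%, 26%, 22.8% and 24.2%) and 0, 3, 0 and 2 members in the 4 WT groups (other genes 0.0548%, 6.38%, 0.0548% and 3.90%). Without the 6 short-fragment libraries, which left 2 livers in each group and required both, the WT Pio and WT HFD-Pio counts of 3 and 2 members were both 0. That outcome was fixed, because WT Pio liver 4 and WT HFD-Pio livers 2 and 3 had no member with an exonic summit. It is not read as a trait of the members. Members had windows of much the same length as the other genes, with a median of 24.3 kb against 23.4 kb, but longer exons in sum, with a median of 4.50 kb against 3.50 kb.

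**Figure D1:**
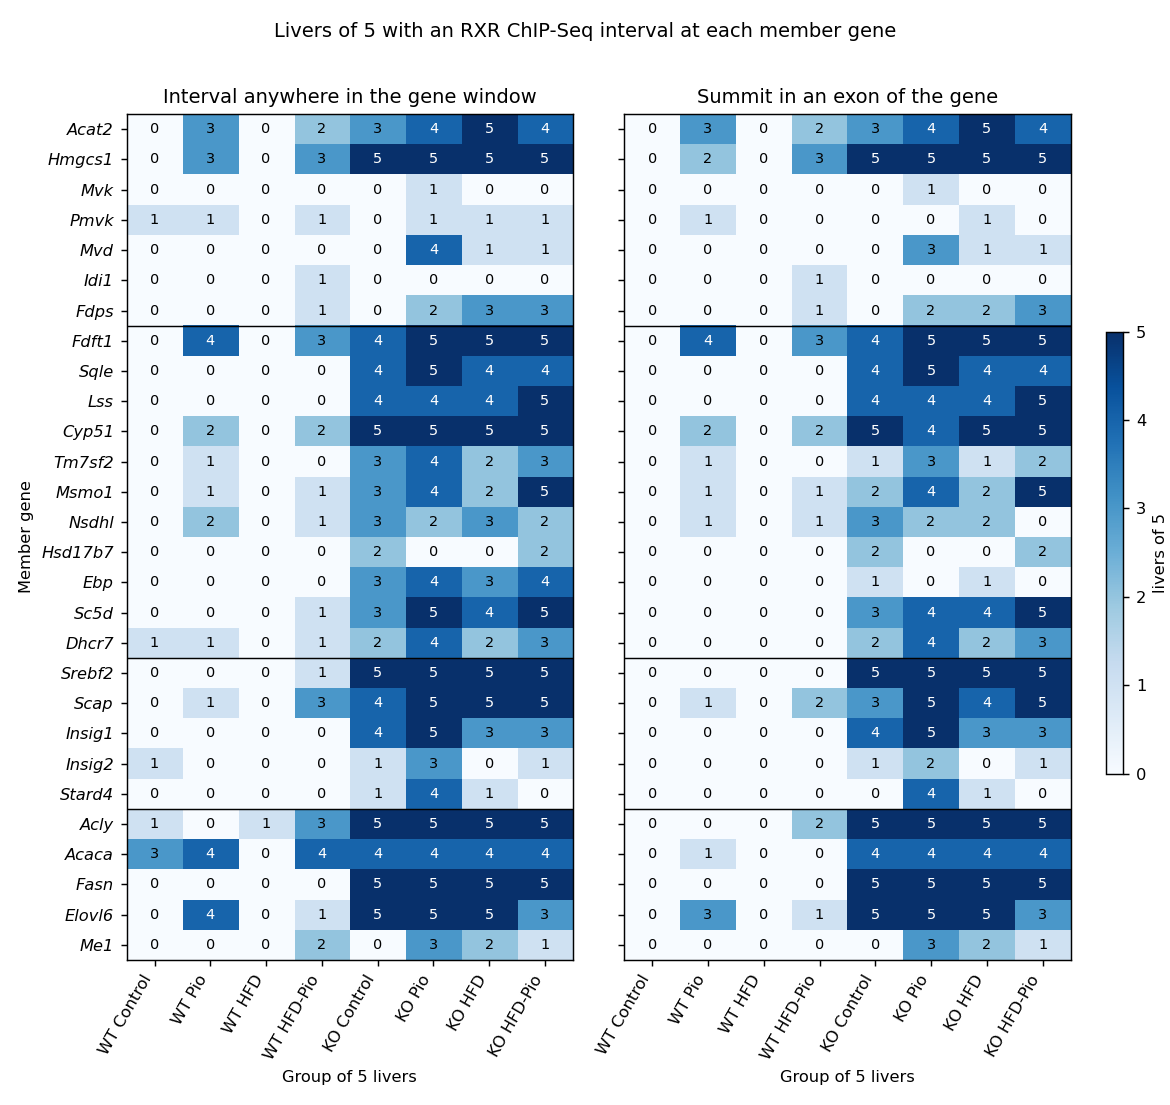
Number of livers of 5 with an RXR ChIP-Seq interval at each of the 28 members (rows, ordered by role: isoprenoid steps, squalene to cholesterol, regulators, fatty acid synthesis) in the 8 groups (columns). The left panel counts any interval in the gene window and the right panel those with a summit in an exon; Fasn is at 0 in every WT group and at 5 in every KO group in both panels.

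Counted per base, the members' exons were covered more than their introns in the KO groups and in the WT groups given Pio, but not in WT Control or WT HFD. Intervals covered a median of 10.3% to 12.3% of the members' 148 kb of exon sequence in the KO groups and 0.415% to 0.553% of their 893 kb of intron sequence. For the other genes, the medians in the KO groups were 4.11% to 4.65% of exon bases and 0.119% to 0.135% of intron bases. In the WT groups, the medians for the members were 0% to 0.235% of exon bases and 0% to 0.0306% of intron bases. In WT Pio and WT HFD-Pio the other genes' exons were also covered more than their introns, at medians of 0.302% and 0.158% against 0.0229% and 0.0279%. Those exon medians were above the members' 0.235% and 0.0784%. The lowest KO library, at 6.03% of the members' exon bases, lay above the highest WT library, at 0.603% (other genes 1.85% and 0.612%).

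**Figure D2:**
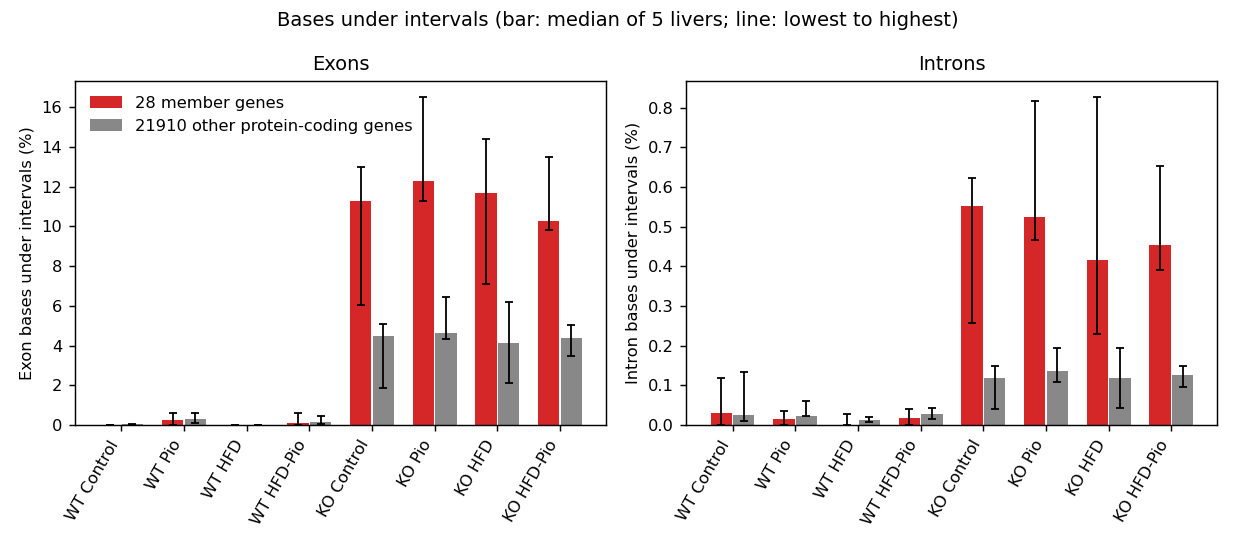
Percentage of exon bases (left) and intron bases (right) lying under intervals, for the 28 members and the 21910 other protein-coding genes, in the 8 groups; bars are the median of 5 livers and lines run from the lowest to the highest liver. The 2 panels have different y axes: KO medians for members reach 12.3% in exons and 0.553% in introns.

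Single livers varied widely within the WT groups given Pio. Members with an exonic summit made up 39.3, 57.1, 64.3, 32.1 and 60.7% of the 28 in KO Control livers 1 to 5, 75.0, 64.3, 64.3, 75.0 and 53.6% in KO Pio, 60.7, 60.7, 71.4, 53.6 and 32.1% in KO HFD and 57.1, 46.4, 71.4, 60.7 and 53.6% in KO HFD-Pio. The other genes' shares in the KO livers ran from 11.9 to 30.3%. In WT Pio livers 1 to 5 the members' shares were 7.14, 10.7, 35.7, 0 and 17.9% (other genes 6.23, 8.53, 15.6, 1.35 and 8.51%). In WT HFD-Pio they were 28.6, 0, 0, 28.6 and 10.7% (other genes 12.1, 1.04, 1.58, 9.27 and 6.70%). The 6 short-fragment WT libraries had 3 to 10 members with an exonic summit, and the other 14 WT libraries, 4 of them from Pio-treated mice, had 0 to 2. The other genes' shares went the same way, at 6.70 to 15.6% and at 0.0776 to 6.23%. All 5 livers of WT Control and all 5 of WT HFD had no such member (other genes 0.173 to 0.666% and 0.0776 to 0.187%).

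**Figure D3:**
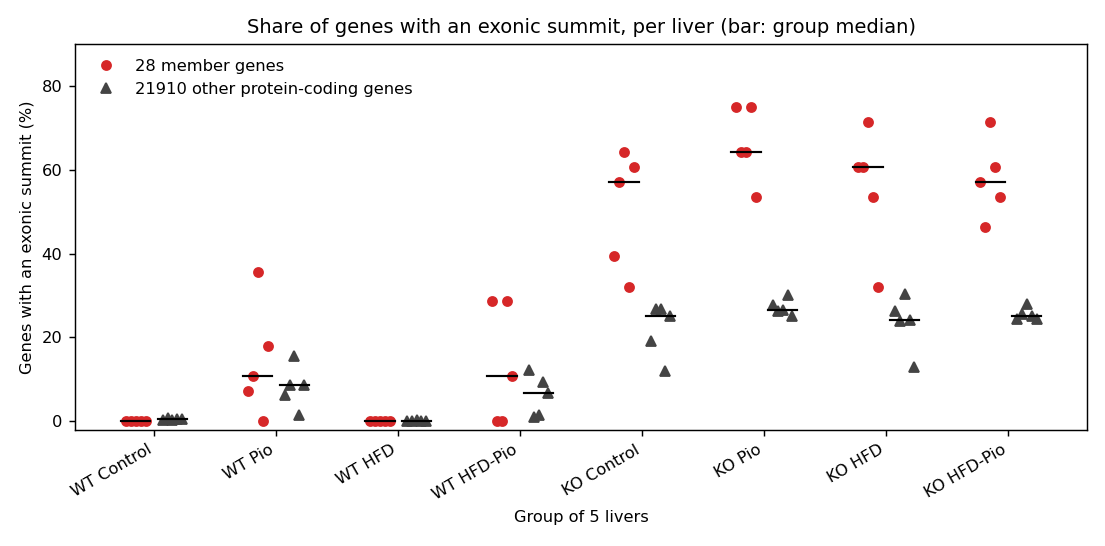
Percentage of genes with an exonic summit in each liver (1 symbol a liver), for the 28 members (circles) and the 21910 other protein-coding genes (triangles), with group medians as bars. The KO livers lie above the other genes' shares throughout, whereas the WT Control and WT HFD livers lie at 0% for the members.

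To see which stretches recurred, the intervals of all 40 libraries that touched a member window were merged into 282 sites. Of these, 129 were seen in 1 liver and 89 in at least 5 livers. Of the 89 recurrent sites, 84 had most of their summits in an exon of the member, 62 with the strongest summit in coding sequence and 18 with it in an untranslated part, and 4 with the strongest summit just outside the exon. The other 5 recurrent sites, 4 upstream and 1 downstream of the member, had their strongest summit in an exon of a neighbouring gene or pseudogene. No recurrent site was intronic by most of its summits. Sites seen in 1 liver were spread differently, 63 of 129 in exons and 55 of 129 in introns. Counting exons of any gene, 95.5% of the members' recurrent sites and 92.8% of those of the other protein-coding genes (20036 of 21597) had the strongest summit in an exon.

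Member summits that fell in introns lay mostly beside exons in the KO libraries. Of 122 member intron summits in the KO livers, 106 (86.9%) were within 200 bases of an exon of the gene, with a median distance of 16.5 bases. Of 32 in the WT livers, 5 (15.6%) were within that distance, with a median of 1112 bases. For scale, 13.7% of the members' intron bases lie within 200 bases of an exon. These summits were pooled over livers and genes, and different genes contributed. Fasn, with a window of 24.7 kb, had intron summits in 19 KO livers and 0 WT livers, and Acly in 14 and 3. Acaca, with a window of 278 kb, had them in 4 KO and 10 WT livers. The part of gene make-up in the contrast was not tested. In the other genes, 36.3% of intron summits in the KO livers and 7.03% in the WT livers were that close, where 7.32% of intron bases are.

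Sequences under recurrent sites are given as examples. They were picked by where the strongest summit lay, so they are no separate evidence of the pattern. They span 50 bases to either side of the strongest summit and are written 5′ to 3′ on the strand of the member gene from the GRCm38.p6 assembly, with annotated exon bases of any gene in capitals. Windows that held untranslated exon sequence were passed over. The first 3 are the exonic sites seen in the most livers, in Hmgcs1 (chr13:119699882-119699982, 22 livers) and in Fasn (chr11:120818941-120819041 and chr11:120815069-120815169, 20 livers each), and every base of each is exon.
Hmgcs1, coding exon: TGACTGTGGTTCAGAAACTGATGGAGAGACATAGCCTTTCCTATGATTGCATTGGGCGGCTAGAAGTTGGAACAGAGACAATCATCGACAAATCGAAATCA
Fasn, coding exon: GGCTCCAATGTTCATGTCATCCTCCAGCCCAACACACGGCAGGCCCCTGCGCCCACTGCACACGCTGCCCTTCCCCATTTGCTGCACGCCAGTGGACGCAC
Fasn, second coding site: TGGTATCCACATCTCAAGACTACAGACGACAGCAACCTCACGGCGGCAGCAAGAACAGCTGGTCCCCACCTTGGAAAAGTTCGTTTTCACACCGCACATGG

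The next 3 lie outside the member's own exons. They were seen in the most livers among such sites whose window held no untranslated exon sequence. The site after Scap (chr9:110385485-110385585, 15 livers) lies in an exon of Ptpn23, the site before Acat2 (chr17:12962996-12963096, 7 livers) in the processed pseudogene Gm15946, and the site before Ebp (chrX:8197972-8198072, 5 livers) in an exon of Porcn, with the last 3 bases of the window outside it.
Downstream of Scap: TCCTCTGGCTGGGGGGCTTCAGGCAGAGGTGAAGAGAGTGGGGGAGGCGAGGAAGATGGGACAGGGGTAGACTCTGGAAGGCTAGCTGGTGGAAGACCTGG
Upstream of Acat2: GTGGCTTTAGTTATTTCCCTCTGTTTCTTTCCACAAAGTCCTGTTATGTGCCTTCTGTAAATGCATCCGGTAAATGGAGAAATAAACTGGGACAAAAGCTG
Upstream of Ebp: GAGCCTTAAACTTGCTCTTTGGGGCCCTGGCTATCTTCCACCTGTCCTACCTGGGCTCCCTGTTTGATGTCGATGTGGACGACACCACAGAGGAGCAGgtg

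The last 3 windows were chosen after their values were seen. They show recurrent sites with most summits in an exon but the strongest summit in an intron, so the choice itself placed them near exons. In Scap (chr9:110384496-110384596, 11 livers) the summit was 10 bases from an exon, and in Acly (chr11:100515986-100516086, 11 livers, and chr11:100498548-100498648, 7 livers) it was 16 and 23 bases from an exon. In each, the border between capitals and lower case is an annotated splice site, with the ag of the intron before the exon in the first 2 and the gt after it in the third.
Scap, intron and exon: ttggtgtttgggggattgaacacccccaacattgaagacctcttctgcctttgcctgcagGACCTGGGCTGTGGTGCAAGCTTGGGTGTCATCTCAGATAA
Acly, intron and exon: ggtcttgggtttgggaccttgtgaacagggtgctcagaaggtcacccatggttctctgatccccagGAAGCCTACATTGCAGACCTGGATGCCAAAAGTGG
Acly, exon and intron: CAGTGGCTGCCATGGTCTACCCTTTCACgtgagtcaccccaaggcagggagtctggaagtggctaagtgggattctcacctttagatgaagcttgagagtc

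In the steps that lead to isoprenoids, Hmgcs1 had the highest fold enrichments. Hmgcs1 encodes the cytosolic HMG-CoA synthase of the early mevalonate route, and it had an interval in 20 of 20 KO livers and in 6 of 20 WT livers. Its highest fold enrichment over input in KO Control livers 1 to 5 was 10.4, 9.43, 10.3, 11.3 and 12.2, and in KO Pio 12.2, 12.3, 8.43, 23.2 and 10.5. In KO HFD it was 13.2, 9.60, 12.9, 11.2 and 13, and in KO HFD-Pio 12.2, 14.1, 14.3, 13.3 and 10.5. The 4 groups overlapped, with KO Pio liver 4 at 23.2 standing apart. The WT values were 3.74, 3.64 and 3.75 (livers 2, 3 and 5) and 4.69, 4.76 and 3.66 (livers 1, 4 and 5), all below every KO value, and no interval was listed in WT Control or WT HFD. The gene has 9 recurrent sites, all in exons, the first of them 9.55 kb from the start, and the site shared by the most livers, 24 of 40, had its strongest summit in an untranslated part (chr13:119706749-119708121).

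Acat2, the cytosolic thiolase that starts the route by joining acetyl-CoA, had an interval in 16 KO and 5 WT livers. The values were 5.21, 3.75 and 4.72 (livers 2, 3 and 5) in KO Control, 3.76, 3.77, 4.68 and 5.57 (livers 1, 2, 3 and 4) in KO Pio, 6.60, 2.88, 3.75, 5.61 and 3.70 in KO HFD and 4.69, 5.72, 4.75 and 4.75 (livers 1, 3, 4 and 5) in KO HFD-Pio. In WT Pio they were 3.74, 6.21 and 4.69 (livers 2, 3 and 5) and in WT HFD-Pio 5.63 and 3.81 (livers 1 and 4), within the range of the KO livers. Acat2 has 2 recurrent sites, 1 in an untranslated part of an exon (chr17:12943046-12943790, 20 livers) and the upstream site in the pseudogene printed above. The other steps were seldom marked. Mvd, the mevalonate diphosphate decarboxylase, reached 4 of 5 livers in KO Pio and 0 or 1 elsewhere, and Fdps, the farnesyl diphosphate synthase, reached 3 of 5 in KO HFD and KO HFD-Pio. The kinase genes Mvk and Pmvk had an interval in 1 and 6 of 40 livers, and Idi1, the isopentenyl diphosphate isomerase, in 1.

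Between squalene and cholesterol the marks were spread over most enzymes. Fdft1, squalene synthase, had an interval in 19 KO and 7 WT livers, every time with an exonic summit. Its values were 4.72, 4.72, 4.69 and 5.67 (livers 1, 2, 3 and 5) in KO Control, 6.56, 3.77, 4.68, 3.71 and 3.81 in KO Pio, 10.4, 5.76, 6.57, 4.67 and 6.48 in KO HFD and 3.75, 7.52, 5.72, 3.80 and 3.80 in KO HFD-Pio. In WT Pio they were 5.32, 3.74, 6.38 and 3.75 (livers 1, 2, 3 and 5), and in WT HFD-Pio 5.63, 6.67 and 3.66 (livers 1, 4 and 5). The WT values of Fdft1 overlapped those of the KO livers, and the coding exon at chr14:63156471-63156872 was marked in 4 WT Pio, 2 WT HFD-Pio and 13 KO livers.

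Cyp51, the lanosterol demethylase, had an interval in 20 KO and 4 WT livers. The values were 3.72, 3.77, 5.63, 5.49 and 3.75 in KO Control and 5.64, 5.65, 5.62, 4.63 and 3.60 in KO Pio. They were 5.67, 2.88, 6.57, 4.67 and 4.63 in KO HFD and 2.79, 4.66, 3.81, 4.41 and 4.75 in KO HFD-Pio. The 4 WT values, 3.53 and 3.64 (livers 2 and 3) and 4.69 and 4.71 (livers 1 and 4), fell inside the KO range. Its most shared site (chr5:4082138-4083349, 21 livers) has its strongest summit in coding sequence.

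Sqle, squalene epoxidase, and Lss, lanosterol synthase, each had an interval in 17 of 20 KO livers and in no WT liver, with fold enrichments of 3.75 to 8.26 and of 2.82 to 5.70. Sc5d, a sterol desaturase, was marked in 17 KO livers and 1 WT liver, and Msmo1, a sterol methyl oxidase, in 14 and 2. Dhcr7, which reduces a sterol double bond, was marked in 11 KO and 3 WT livers, and its 3 WT marks were not exonic. Hsd17b7, a ketosteroid reductase, was marked in 4 KO livers only, 2 of KO Control and 2 of KO HFD-Pio. For Ebp, Tm7sf2 and Nsdhl, which act on sterol intermediates, the window rather than the gene carried much of the signal. Ebp, the sterol isomerase, was marked in 14 KO livers but had an exonic summit of its own in 2, because its recurrent upstream sites (chrX:8193842-8194384, 12 livers, and chrX:8197883-8198338, 5 livers) lie in exons of Porcn. Tm7sf2, a sterol reductase, was marked in 12 KO livers and had an exonic summit in 7, with all 5 of its upstream sites in exons of Vps51. Nsdhl, a sterol dehydrogenase, was marked in 10 KO and 3 WT livers and had its most shared site, in 8 livers, 4.38 kb upstream in an exon of Cetn2 (chrX:72913794-72914315).

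Among the regulators, Srebf2 and Scap were marked throughout the KO livers. Srebf2, which encodes the SREBP that drives the sterol genes, had values of 5.36, 7.52, 8.26, 6.99 and 7.44 in KO Control and 6.58, 7.13, 8.39, 10.2 and 8.46 in KO Pio. They were 7.55, 8.36, 5.63, 8.63 and 13.1 in KO HFD and 8.45, 7.54, 7.38, 7.05 and 7.40 in KO HFD-Pio. All 20 KO livers had exonic summits, and the single WT interval, at 3.66 in WT HFD-Pio liver 5, had none. Of its 12 recurrent sites, all were seen in KO livers alone, and the longest (chr15:82203690-82205359) was seen in all 20.

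Scap, the escort of SREBP, was marked in 19 KO and 4 WT livers. Its values were 4.47, 4.91, 5.44 and 6.08 (livers 2, 3, 4 and 5) in KO Control and 3.76, 5.50, 4.66, 6.31 and 4.50 in KO Pio. They were 5.96, 5.57, 5.47, 5.47 and 5.24 in KO HFD and 5.41, 5.64, 3.81, 5.30 and 4.65 in KO HFD-Pio, and the WT values were 4.56 (liver 3) in WT Pio and 3.75, 4.23 and 3.81 (livers 1, 3 and 4) in WT HFD-Pio. The groups overlapped, and the site shared by most livers was the downstream site in Ptpn23 shown above. Insig1, the sterol-sensing anchor that is itself induced by SREBP, was marked in 15 KO livers at 3.75 to 7.67 and in no WT liver. Its relative Insig2 was marked in 5 KO livers and 1 WT liver. Stard4, a sterol carrier, was marked in 4 of 5 KO Pio livers, in 1 liver each of KO Control and KO HFD and in no other.

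At Fasn the intervals were split fully by genotype, and with it by depth and cutoff. The same split was seen at the non-members Scd2, Fads1 and Fads2 and at the neural marker Syp. Fatty acid synthase had an interval in 20 of 20 KO livers and in 0 of 20 WT livers, where a missing interval means only that no stretch passed the cutoff. Its values were 11, 9.56, 15.9, 10.5 and 9.22 in KO Control and 10.9, 14, 10.4, 16.4 and 11.7 in KO Pio. They were 12.1, 9.94, 13.6, 14.1 and 12.3 in KO HFD and 8, 10.9, 13.2, 10.8 and 12.2 in KO HFD-Pio. The 4 groups overlapped. The intervals ran over 8 recurrent sites, all exonic, the widest of which (chr11:120807036-120814156) was found in all 20 KO livers.

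**Figure D4:**
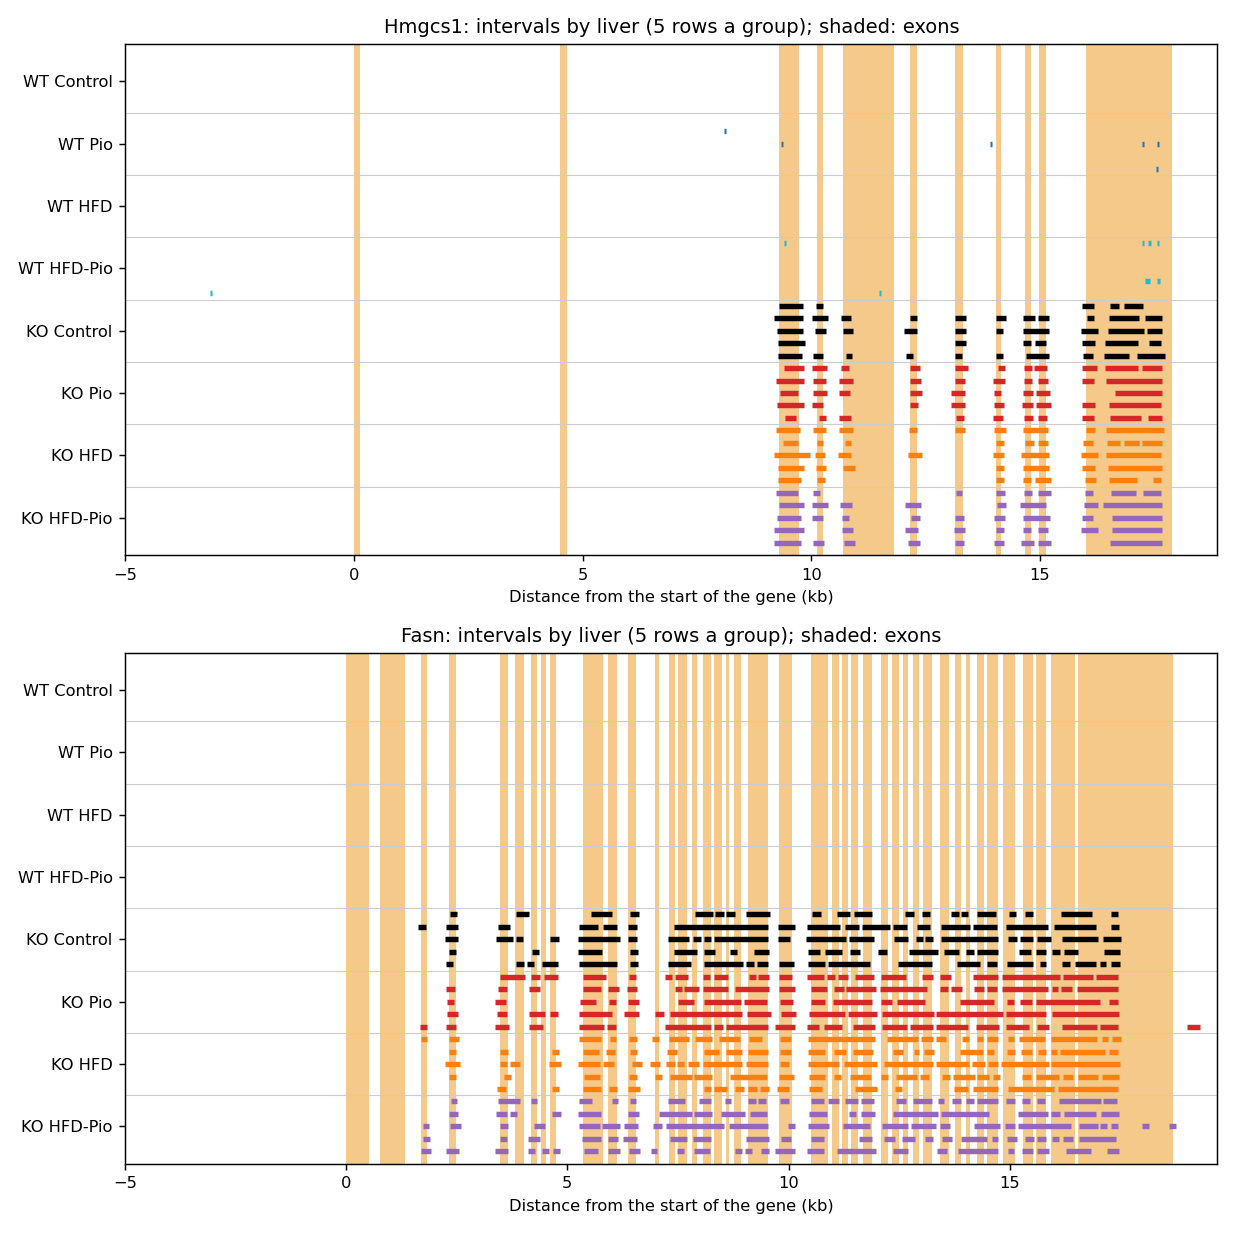
Intervals at Hmgcs1 (top) and Fasn (bottom) in the 40 livers, 5 rows a group, against the distance in kb from the start of the gene; shaded bands are annotated exons of the gene and coloured bars are intervals. The KO intervals of Hmgcs1 start 9 to 10 kb into the gene, over or beside exons, and Fasn has none in the WT rows.

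Acly, ATP-citrate lyase, was marked in 20 KO and 5 WT livers. Its values were 4.72, 5.59, 7.88, 6.97 and 7.87 in KO Control and 5.56, 8.32, 6.29, 6.26 and 7.21 in KO Pio. They were 7.36, 5.76, 8.45, 8.41 and 5.26 in KO HFD and 7.02, 7.30, 8.58, 11.4 and 5.58 in KO HFD-Pio. The WT values were 4.66 in WT Control liver 4, 5.05 in WT HFD liver 5 and 2.79, 2.86 and 2.75 (livers 1, 4 and 5) in WT HFD-Pio, and all but the WT HFD value lay below the lowest KO value. Acly had 16 recurrent sites, the most of any member, all exonic.

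Acaca, the cytosolic acetyl-CoA carboxylase, was the member marked in the most livers, 16 KO and 11 WT, but the genotypes were marked at different places. Its values were 3.82, 3.86 and 4.36 (livers 1, 2 and 4) in WT Control, 3.26, 2.81, 3.64 and 2.79 (livers 1, 2, 3 and 5) in WT Pio and 2.81, 3.10, 3.52 and 3.66 (livers 1, 2, 3 and 5) in WT HFD-Pio. In the KO groups they were 3.78, 3.77, 3.75 and 4.72 (livers 1, 2, 3 and 5), 4.2, 3.76, 6.56 and 4.64 (livers 1, 2, 3 and 4), 5.67, 3.84, 3.75 and 4.64 (livers 1, 2, 3 and 4) and 4.69, 3.77, 4.77 and 4.75 (livers 1, 2, 3 and 4), in the order KO Control, KO Pio, KO HFD and KO HFD-Pio. The WT marks fell at 16 sites across the 278 kb window, the longest among the members, 15 of them intronic, and no such site was shared by 2 WT livers. The KO marks had exonic summits in all 16 livers, and 14 of these shared a site in an untranslated part of an exon (chr11:84400787-84401631).

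Elovl6, an elongase of long-chain fatty acids, was marked in 18 KO and 5 WT livers. Its values were 3.78, 3.77, 2.82, 6.10 and 6.61 in KO Control and 5.64, 4.72, 3.75, 3.71 and 3.81 in KO Pio. They were 5.23, 3.84, 4.69, 3.74 and 4.63 in KO HFD and 4.65, 2.86 and 3.80 (livers 1, 3 and 4) in KO HFD-Pio. In WT Pio they were 3.80, 3.74, 4.56 and 2.82 (livers 1, 2, 3 and 5), and the single WT HFD-Pio value was 5.71 (liver 4). A coding exon (chr3:129632962-129633367) was marked in 3 WT Pio livers and in 9 KO livers. Me1, the malic enzyme that supplies NADPH, was marked in 3 KO Pio, 2 KO HFD, 1 KO HFD-Pio and 2 WT HFD-Pio livers, at 2.75 to 3.81.

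**Figure D5:**
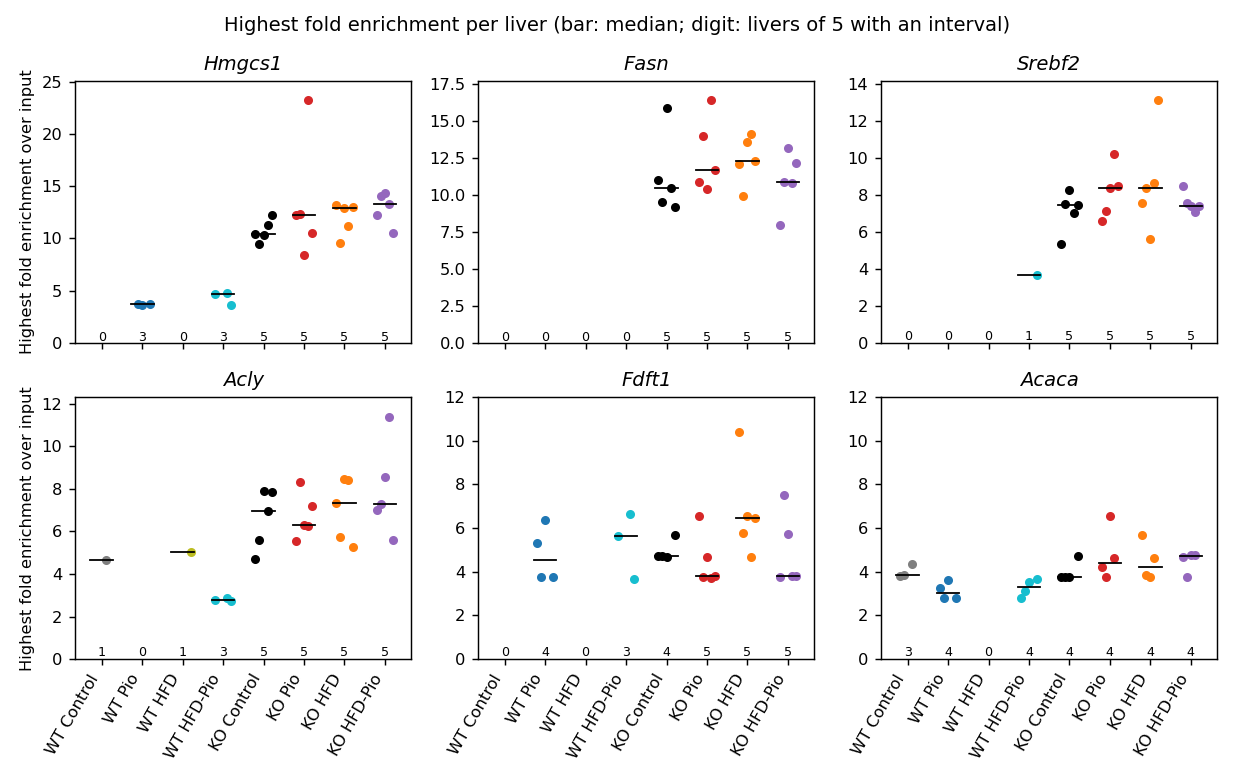
Highest fold enrichment over input among the intervals of 6 members (y axes, linear and differing between panels) in each liver of the 8 groups; points are livers with an interval, bars their median and digits the number of livers of 5 with an interval. Hmgcs1, Fasn and Srebf2 have their highest values in the KO groups, whereas Fdft1 and Acaca overlap between genotypes.

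Few tags stood behind most of these values. The pileup at a member summit had a median of 3 tags in the WT livers, with a range of 2 to 8, and of 4 tags in the KO livers, with a range of 2 to 24.0. The median fold enrichment over all member summits was 3.74 in WT and 4.72 in KO. Fold enrichments at the low end therefore rest on 2 to 4 tags each.

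The effect of Pio was read as members gained, meaning an interval in at least 3 of 5 treated livers and in none of the 5 untreated ones. In WT mice on control diet, 4 of 28 members were gained (14.3%), against 9.14% of the other genes. They were Fdft1 and Elovl6, each in 4 of 5 WT Pio livers, and Hmgcs1 and Acat2, each in 3. None was lost (other genes 0.0639%). In WT mice on HFD, 4 members were gained (other genes 9.33%), namely Acaca in 4 of 5 WT HFD-Pio livers and Hmgcs1, Fdft1 and Scap in 3, and none was lost (0.00456%). A gain counts intervals anywhere in the window, so the livers need not share a place. The most livers sharing 1 site in WT Pio were 4 for Fdft1, 3 for Elovl6 and Acat2 and 2 for Hmgcs1. In WT HFD-Pio they were 3 for Fdft1, 2 for Hmgcs1 and Scap and 1 for Acaca. By Fisher's exact test (two-sided) of how many livers had an interval, run over all genes with an interval in at least 1 of the 10 livers, no member passed an adjusted p of 0.05, with 2 members in WT Pio (Fdft1 and Elovl6) and 1 in WT HFD-Pio (Acaca) below an unadjusted p of 0.05. These are 14.3% and 5.88% of the members tested, against 11.4% and 7.38% of the other genes tested, none of which passed after adjustment either. The smallest adjusted p of a member was 0.418 and 0.644 by the exact test. Without the short-fragment libraries, 0 of 28 members were gained in WT Pio (other genes 1.72%) and 1, Acaca, in WT HFD-Pio (other genes 1.32%). The 0 in WT Pio was fixed, because both livers left were required and liver 4 had an interval at no member. The count was 0 in both groups when only intervals at a −log10 q of 5 or above were kept or when lists had equal length. Leaving out WT Pio liver 2, 3 or 5 left 2 gained members, Fdft1 and Elovl6, and leaving out WT HFD-Pio liver 1 or 4 left 1, Acaca, and liver 5 left 2, Acaca and Scap. With 1 treated liver left out, 3 of the 4 left were still required. A member marked in exactly 3 livers therefore drops out by rule when 1 of those is removed.

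In KO mice, Pio on control diet gained 2 members, Mvd in 4 of 5 livers and Me1 in 3 (other genes 0.940%), and lost none (0.169%). On HFD it gained none (0.571%) and lost none (0.333%). By Fisher's exact test no member passed, with 1 (Mvd) and 0 members higher at an unadjusted p under 0.05 (other genes tested 0.875% and 0.375%), and no other gene passed after adjustment. Me1 was marked in KO Pio livers 1, 3 and 4, so its gain drops out by the rule above without any 1 of them. At both Mvd and Me1, at most 2 KO Pio livers shared 1 site. The difference between WT and KO in the effect of Pio was not tested.

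Diet moved few members. HFD alone gained no member in WT mice (other genes 0.0137%) and lost 1, Acaca, from 3 of 5 WT Control livers to 0 of 5 WT HFD livers (0.904%). Among Pio-treated WT mice, HFD gained 1 member, Acly (0.237%), and lost none (0.452%). Within WT HFD-Pio, Acly was marked in livers 1, 4 and 5 alone, so by the same rule it was not gained without any 1 of them. In KO mice, HFD gained 1 member, Fdps (0.525%), and lost none (0.242%). Within KO HFD, Fdps was marked in livers 1, 2 and 3 alone, so the rule likewise drops it without any 1 of them. Among Pio-treated KO mice, HFD gained none (0.306%) and lost 1, Stard4, from 4 of 5 livers to 0 of 5 (0.566%). None passed Fisher's exact test after adjustment, and the Stard4 loss was the only one of the members below an unadjusted p of 0.05 in the 4 diet comparisons, at an exact p of 0.0476 (other genes tested 0.489% lower). No other gene passed in these 4 comparisons. The most livers sharing 1 site were 1 for Acaca (WT Control) and Acly (WT HFD-Pio) and 2 for Fdps (KO HFD) and Stard4 (KO Pio).

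The genotype comparison gave the largest numbers, with the depth, cutoff and marker differences described above. Between KO Control and WT Control, 16 of 28 members were gained, against 19.7% of the other genes. The counts were 12 members in KO Pio against WT Pio (other genes 11.4%), 16 in KO HFD against WT HFD (26.5%) and 6 in KO HFD-Pio against WT HFD-Pio (11.8%). Without the short-fragment libraries the Pio and HFD-Pio counts were 19 and 17 (other genes 23.9% and 26.3%). When only intervals at a −log10 q of 5 or above were kept the 4 counts were 4, 6, 6 and 5. These last counts are given without the share of the other genes and are not read as a trait of the members. Fasn, Sqle, Lss, Ebp and Insig1 were gained in all 4 comparisons with all intervals and libraries. No member was called in at least 3 WT livers and in none of the matching KO livers. Few of the other genes were, at 0.411%, 2.56%, 0.132% and 1.84% in the order Control, Pio, HFD and HFD-Pio. By Fisher's exact test, 8 members passed in KO HFD against WT HFD at an adjusted p of 0.0322 (other genes 24.5% of 11307 tested), and these were Hmgcs1, Fdft1, Cyp51, Acat2, Srebf2, Scap, Fasn and Elovl6, each in 5 of 5 against 0 of 5 livers. In the other 3 genotype comparisons none passed, with 11, 11 and 7 members below an unadjusted p of 0.05 in the order Control, Pio and HFD-Pio, where the smallest p that the exact test allows is 0.00794. These are 47.8%, 42.3% and 26.9% of the members tested, against 29.4%, 20.2% and 19.9% of the other genes tested, none of which passed after adjustment either. When the 10 lists of each comparison were shortened to the length of the shortest, the counts were 2, 2, 1 and 3 members (other genes 1.94%, 2.42%, 1.26% and 2.73%), and Hmgcs1 was among them each time, as was Fasn in 3 of 4.

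Within the KO mice, the size of the enrichment was compared for genes with an interval in all 10 livers of a comparison. Log2 of the highest fold enrichment, centred on the median of each liver, was fitted with limma over 2311 to 3676 genes, 6 to 8 of them members. With limma, no member passed an adjusted p of 0.05 in KO Pio against KO Control (other genes 0.461%), in KO HFD-Pio against KO HFD (0%), in KO HFD against KO Control (0%) or in KO HFD-Pio against KO Pio (0%), and no member was below an unadjusted p of 0.05. Hmgcs1 differed by 0.13 ± 0.19 (log2 difference ± SE) for KO Pio minus KO Control and by 0.18 ± 0.15 for KO HFD-Pio minus KO HFD. Fasn differed by 0.09 ± 0.17 and fell by 0.11 ± 0.15 in the same comparisons. Srebf2 differed by 0.10 ± 0.16 and by -0.07 ± 0.20, and Acly by -0.05 ± 0.17 and by 0.24 ± 0.18. The greatest difference of any member was in Fdft1, at -0.40 ± 0.21 for KO HFD-Pio minus KO HFD, with a limma adjusted p of 0.954. For HFD, Srebf2 differed by 0.20 ± 0.20 without Pio (KO HFD minus KO Control) and Acly by 0.31 ± 0.18 with it (KO HFD-Pio minus KO Pio).

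The promoters, where sterol elements are known to lie, were hardly marked in the members, and those of the other genes were hardly marked either. Of 24 members with a RefSeq promoter of 300 bases (250 before to 50 after the start), none had an interval over it in 3 livers of any group, and the highest share among the other genes was 0.721% in KO Pio. No WT liver had an interval over a member promoter, and at most 0.0546% of the other genes had one in 3 livers of a WT group. The exceptions in single KO livers were Insig1 in 1, Srebf2 in 2 and Tm7sf2 in 3. The sterol element TCACNCCAC, searched exactly on both strands, was found in the promoter of 1 of the 24 members and of 1.41% of the other genes. It is that of Hmgcs1 (chr13:119690204-119690232), shown here because it is the only one found among the 24, with the element in capitals and its centre 133 bases before the start.
Hmgcs1 sterol element: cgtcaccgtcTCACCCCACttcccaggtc

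No liver of the 40 had an interval over that promoter. The RXR half-site repeat AGGTCANAGGTCA, searched on both strands with at most 2 mismatches, was found in none of the 24 member promoters and in 3.95% of the others. Around the strongest summits, 3 of the 89 recurrent member sites (3.37%) held the repeat and 1 (1.12%) the sterol element in the same span, against 1.2% and 0.394% of the recurrent sites of the other genes. None of the 9 windows printed above held either. Absence of a match says only that these letters are not in the window.

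Other genes of the same pathways, 17 that are not members, had their exonic summits mainly in the KO livers. In the KO groups 8, 8, 8 and 9 of the 17 had an exonic summit in at least 3 livers, in the order Control, Pio, HFD and HFD-Pio, and in the WT groups 0, 1, 0 and 0. The desaturase genes Scd2, Fads1 and Fads2 had one in all 20 KO livers, whereas the desaturase gene Scd1 had one in 2, 2, 2 and 4 livers of the KO groups and in 1 WT Control liver. Acacb, the mitochondrial acetyl-CoA carboxylase, differed from the rest, with no exonic summit but with an interval in 5, 4, 4 and 4 livers of WT Control, WT Pio, WT HFD and WT HFD-Pio and in all 5 livers of every KO group. Mlxipl and Thrsp had no exonic summit in any of the 40 livers, and Acss2, the acetyl-CoA synthetase, was the 1 gene of the 17 marked in exons of 3 or more WT Pio livers, in 4.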

How the data were processed

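RXR ChIP and input libraries from 40 livers were available as peak lists, 1 list for each ChIP library. Per the labels and the file headers, the authors aligned reads to mm10 with Novoalign and called peaks for every ChIP library over the input of the same liver with MACS2 2.1.1.20160309, at a p cutoff of 0.001 for WT and a q cutoff of 0.05 for KO, with 1 tag kept per position and no pooling of replicates. The deposited lists give the fold enrichment over input at the summit, the pileup signal in tags, and the −log10 q, and all 3 columns were used as deposited. A second peak file of each library held the same intervals, summits and fold enrichment in all 40 libraries and was not used. Fold enrichment over input is set side by side between genotypes without a test, and it is not taken as corrected for their difference in depth. At member summits, medians of 3 tags in WT and 4 tags in KO went with median fold enrichments of 3.74 and 4.72. A gene absent from a list is below the authors' cutoff, which is not a value of 0.

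Intervals were matched to GENCODE M21 protein-coding genes (overlap of at least 1 base, 5 kb upstream and 1 kb downstream) in Python 3.11.15 with pandas 2.3.3. Numbers of livers were compared by two-sided Fisher's exact test (scipy 1.17.1) over all genes with an interval in at least 1 of the 10 livers. Log2 fold enrichment was compared within KO by limma 3.58.1 in R 4.3.3, with Benjamini-Hochberg adjustment in both. Livers are separate mice per the labels. The scripts were tested on simulated data. Sequences came from RefSeq's GRCm38.p6 assembly, which has the mm10 coordinates, and promoters from its RefSeq table. The members, gene lists and marker lists were chosen with earlier results of these data known, and nothing here is independent support for them. Values in every liver are given for the 10 members marked in the most livers among those in at least 3 of 5 livers of a group. Windows of sequence were taken at the sites seen in the most livers, and those with untranslated exon sequence were passed over. Alternatives were a stricter q, lists of equal length, the gene body alone, another number of livers, exonic or other summits alone, and left-out libraries. Of the other genes of the pathways, 3 are not reported here.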

Additional observations from a re-analysis of the deposited data

Results flagged for a closer look

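Among 52 groups of 5 livers checked for a liver standing apart from the rest, 4 were picked out, where chance picks about 1 in 20. Fold enrichment of Hmgcs1 in KO Pio liver 4 was 23.2, with the next liver at 12.3. That of Fasn in KO Control liver 3 was 15.9, with the next at 11. Sc5d in KO Pio liver 3 stood lowest at 2.81, with the next liver at 4.48. In WT HFD, liver 5 had an interval at 1 member, Acly, and the other 4 livers at 0.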

How the results depend on the processing

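Counts of members gained moved with the choice of intervals. With a −log10 q of at least 5 the counts were 0 for Pio in WT on either diet and in KO Control, 1 in KO HFD, 0 for HFD in Pio-treated WT and in untreated KO, and for KO against WT they were 4 (Control), 6 (Pio), 6 (HFD) and 5 (HFD-Pio). With lists of equal length they were 0 in all Pio and diet comparisons and 2, 2, 1 and 3 for KO against WT in Control, Pio, HFD and HFD-Pio. With 4 of 5 livers required they were 2 and 1 for Pio in WT Control and WT HFD, 1 in KO Control, 0 for HFD in Pio-treated WT and in KO, and 10 for KO against WT in Control. With exonic summits alone, Pio in WT HFD gained 2, and HFD gained 0 in Pio-treated WT and in KO. With other summits alone, the counts were 0 and 1 for Pio in WT, 0 and 1 in KO, 0 and 0 for HFD, and 3, 4, 3 and 3 for KO against WT. Without the short-fragment libraries they were 0 and 1 for Pio in WT, 0 for HFD in Pio-treated WT, and 19 and 17 for KO against WT in Pio and HFD-Pio, and the exonic counts, added after seeing the data, were 0 in WT Pio and 0 in WT HFD-Pio. The 0 for Pio in WT on control diet and both exonic counts were fixed, because each required a liver with no member so marked. At a −log10 q of at least 5, Pio gained 4.99% and 1.89% of the other genes in WT on control diet and on HFD. In KO it gained 0.653% and 0.274%. Counts given here and below without a share of the other genes show the dependence on settings only. They are not read as a trait of the members. The causes were not tested.

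Leaving out 1 liver in turn gave 2 to 4 members gained by Pio in WT Control, 1 to 5 in WT HFD, 1 to 3 in KO Control and 0 in KO HFD. Here 3 of the 4 livers left were still required, so members marked in exactly 3 livers drop out by rule. For HFD it gave 0 in WT, 0 to 2 in Pio-treated WT (2, Acly and Scap, without WT Pio liver 3), 0 to 1 in KO and 0 in Pio-treated KO. For KO against WT it gave 11 to 17 in Control, 10 to 16 in Pio, 12 to 17 in HFD and 4 to 9 in HFD-Pio. By limma it gave 0 throughout. Same-numbered KO livers did not deviate together in the 4 comparisons within KO (correlations of -0.08 to 0.06), so there the numbers do not pair the livers, and limma with the replicate block called 0 members in all 4 comparisons. Member summits rested on 2 to 8 tags in WT and 2 to 24.0 in KO, and how far a missing interval follows from depth or from the cutoff was not tested.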
